A study of Homo sapiens with 12 samples.

Results

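The libraries described here are the highest-numbered library of each of the 4 groups, WT_10_3, Leo1_10_6, WT_01_9 and Leo1_01_12, called libraries 3, 6, 9 and 12. They are 4 of the 12 libraries of the series, and each was set against the 2 other libraries of its own group. Libraries 3 and 6 came from cells in 10% serum and were compared with libraries 1 and 2 and with libraries 4 and 5. Libraries 9 and 12 came from cells in 0.1% serum and were compared with libraries 7 and 8 and with libraries 10 and 11. They were chosen by their counts: the chi-square statistic per gene between libraries of one group was 66.2 to 144 for every pair that included one of them and 3.04 to 12.1 for the other pairs. Their differences from the 2 others are therefore given as a description, without a test.

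The cells were BJ-5ta, a human foreskin fibroblast line immortalized with telomerase, cultured in RPMI medium with FBS and penicillin/streptomycin. The WT_10 group held wild-type cells in 10% FBS, and the WT_01 group held wild-type cells after 10 days in 0.1% FBS. The Leo1_10 and Leo1_01 groups held ΔLEO1 cells, in which CRISPR editing had removed part of LEO1, a subunit of the PAF1 transcription elongation complex, in the same media and for the same time. All ΔLEO1 libraries came from 1 clone, and the labels do not say whether the 3 libraries of a group were separate cultures, so the p-values below measure only the spread between these libraries, which may be technical. Poly(A) RNA was sequenced with ERCC transcripts, synthetic RNAs added to each RNA sample.

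The gene counts ran from 26240632 to 45315560 per library, and none of the 4 libraries was the shallowest or the deepest of the 12. Within their groups, library 3 (39212519) and library 12 (35299219) were the deepest. LEO1 stood at 20.4 to 30.4 CPM, a gene's counts scaled to the same total of gene counts in every library, in the wild-type libraries and at 0.661 to 1.44 CPM in the ΔLEO1 libraries, so that every library carried the level of its genotype. The ERCC counts took 0.625% to 3.24% of a library. All 16 fibroblast markers were detected in each library, with a summed level of 76089 to 109759 CPM. The summed markers of leukocytes stayed between 4.25 and 11.2 CPM with TYROBP at 0, those of endothelial cells between 1.21 and 6.42 CPM, those of melanocytes between 16.4 and 71.5 CPM with SOX10 at 0, and those of keratinocytes between 66.9 and 223 CPM with KRT1 and DSG3 at 0. Other members were present: 4 of 12 leukocyte, 2 of 10 endothelial, 2 of 8 melanocyte and 2 of 10 keratinocyte markers passed 1 CPM in at least 3 libraries.

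Fibroblasts in serum divide, and when serum is withdrawn they leave the cell cycle and lower the genes of DNA replication and mitosis, which is why these genes are used as markers of quiescence. Fibroblasts also make collagen and other matrix proteins, contract through smooth muscle-type actin, and answer injury or infection through NF-kB, a transcription factor that turns on cytokines, chemokines and its own inhibitors. Metallothioneins and zinc transporters follow the zinc supply through the metal-sensing factor MTF1. In bulk RNA, fewer cells of a type and less RNA per cell cannot be told apart.

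The measure used below is the log2 CPM of the highest-numbered library less the mean log2 CPM of the 2 others, relative to the median of that difference over the 13236 genes tested, and it is called the difference. A gene was called higher or lower where its difference passed 1 on the log2 scale, a 2-fold change, and the library lay outside the 2 others. Subtracting the median takes out the total RNA scale. On the ERCC scale the median gene differed by -0.74 in library 3, -0.39 in library 6, -0.50 in library 9 and 1.28 in library 12, so that a gene at 0 below was lower than in the 2 others in libraries 3, 6 and 9 and higher in library 12 when counted against the ERCC transcripts. Library 12 held 90.7 gene counts per ERCC count, with the ERCC total taken times its TMM factor, where libraries 10 and 11 held 52.7 and 30.0.

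Between the 2 other libraries of a group, 47 to 143 genes differed by more than 2-fold (0.355% to 1.08% of those tested). Between them and the highest-numbered library, 404 to 741 genes did (3.05% to 5.60%). The correlation of log2 CPM across genes was 0.994 to 0.997 between the 2 others and 0.979 to 0.988 with the highest-numbered library. No highest-numbered library correlated better with a library of another group, where the best value was 0.968, between libraries 12 and 4.

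In library 3, 167 genes were higher (1.26%) and 485 were lower (3.66%). In library 6, 177 genes were higher (1.34%) and 254 were lower (1.92%). In 10% serum, 28 genes were higher in both genotypes (0.212%) and 85 were lower in both (0.642%). The genes lower in both were 17.5% of the lower genes of library 3 and 33.5% of those of library 6, and 8 genes were called in opposite directions. Across all tested genes the differences of libraries 3 and 6 had a Pearson's r of 0.40, a value across genes, which are not independent replicates.

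In library 9, 318 genes were higher (2.40%) and 221 were lower (1.67%). In library 12, 339 genes were higher (2.56%) and 301 were lower (2.27%). In 0.1% serum, 102 genes were higher in both genotypes (0.771%) and 88 were lower in both (0.665%). Only 2 genes were called in opposite directions in 0.1% serum, and r across genes was 0.46. Among genes with a symbol and at least 10 CPM in a group, those nearest the threshold in both genotypes were RASGRP3 inside (1.033) and LMOD1 outside (0.9985) for higher and TROAP inside (-1.003) and CDT1 outside (-0.9997) for lower genes in 10% serum. In 0.1% serum they were MNT inside (1.006) and SBF2-AS1 outside (0.9988) among higher genes and RGS2 inside (-1.007) and B4GALT1 outside (-0.9897) among lower genes.

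**Figure D1:**
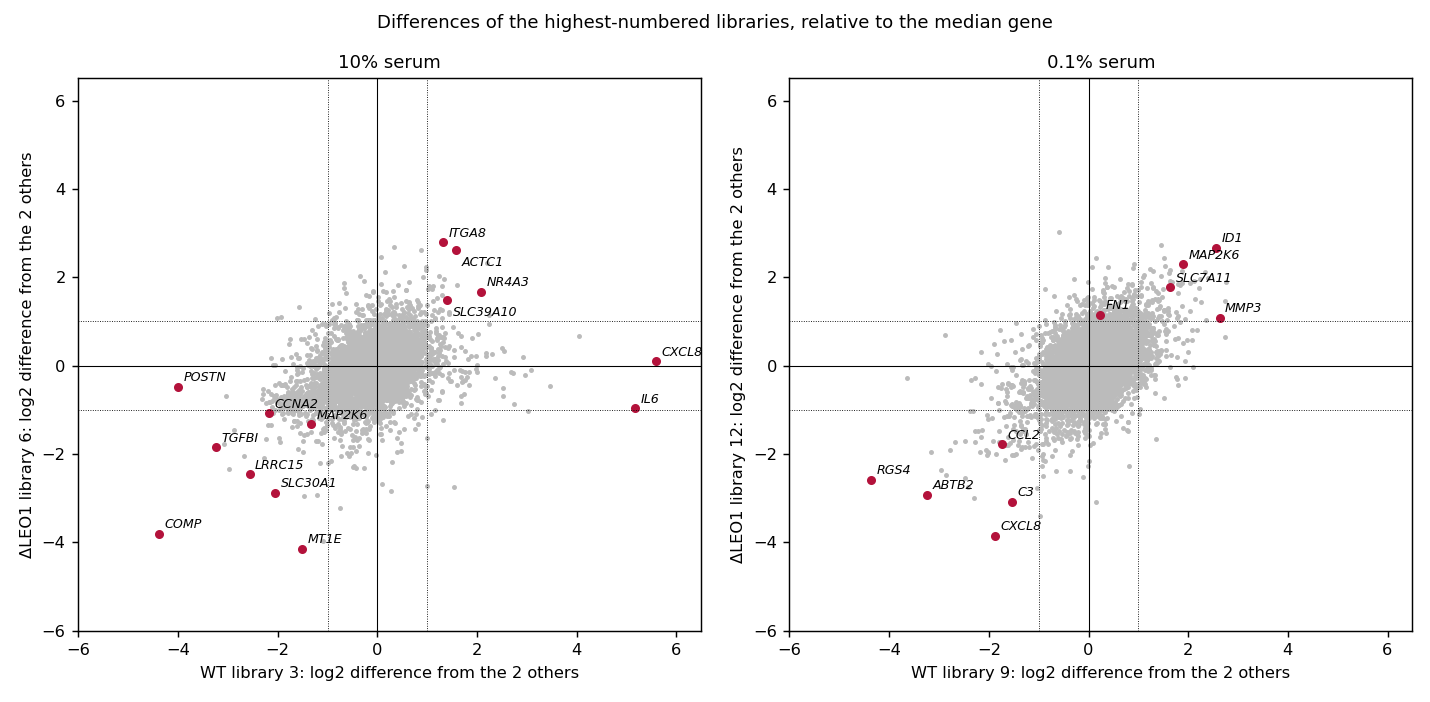
Each point is 1 of the 13236 tested genes, with the log2 difference of the wild-type library from the 2 others of its group on the x axis and that of the ΔLEO1 library on the y axis, for 10% serum on the left and 0.1% serum on the right. Dotted lines mark a 2-fold difference relative to the median gene. COMP, TGFBI, SLC30A1 and MT1E lie at the lower left in 10% serum and IL6 and CXCL8 far to the right near the horizontal axis, and in 0.1% serum ID1, MAP2K6 and SLC7A11 lie at the upper right and RGS4, ABTB2 and CXCL8 at the lower left.

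In 10% serum, the genes of mitosis were lower in library 3 and in library 6 than in the 2 others of their groups. Their summed level was 2578 and 2653 CPM in libraries 1 and 2 and 812 CPM in library 3, and 2860 and 3171 CPM in libraries 4 and 5 and 1664 CPM in library 6. The median difference over the 57 tested genes was -1.76 in library 3 and -0.84 in library 6, and all 57 had a negative difference in both. Called lower were 55 of 57 in library 3 and 5 of 57 in library 6, against 3.66% and 1.92% of all tested genes. Between the 2 other libraries the median difference of these genes was 0.05 in wild-type and 0.16 in ΔLEO1 cells.

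MKI67, the gene of the proliferation antigen Ki-67 (ENSG00000148773, on the minus strand of GRCh38 at chr10:128096659-128126385), stood at 186 and 180 CPM in libraries 1 and 2 and at 47.0 CPM in library 3, and at 173 and 187 CPM in libraries 4 and 5 and at 106 CPM in library 6. CCNA2, the cyclin of S phase and G2, stood at 42.7 and 43.3 CPM against 9.31 CPM in wild-type cells and at 43.8 and 50.7 CPM against 21.9 CPM in ΔLEO1 cells. In both genes the highest-numbered library was the lowest of its group in both genotypes, and the gap was larger in wild-type cells. KIF20A, a kinesin of cytokinesis, and NDC80, a kinetochore protein, had differences of -2.15 and -2.11 in library 3 and of -0.82 and -0.94 in library 6.

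The DNA replication genes were lower in the same libraries. Their 44 tested members had a median difference of -1.21 in library 3 and -0.71 in library 6, all 44 negative in both, with 31 called lower in library 3 and 3 in library 6. RRM2, a subunit of ribonucleotide reductase, stood at 113 and 116 CPM in libraries 1 and 2 and at 32.6 CPM in library 3, and at 109 and 130 CPM in libraries 4 and 5 and at 55.6 CPM in library 6. Of its 58-base stretches, 19.6% also occur in other genes. UHRF1, which binds newly replicated DNA and shares 20.2% of its stretches with other genes, had differences of -1.24 and -1.07. E2F7, a repressor of the E2F program, was called lower in both genotypes (-1.33 and -1.498). CCND1, the G1 cyclin that growth factors induce, differed by only -0.14 in library 3 and -0.59 in library 6.

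Mitotic genes are known to share a short promoter element, the cell cycle homology region. In the RefSeq promoters of GRCh38.p14, from 250 bases before to 50 bases after the start site, TTTGAA or TTCGAA occurred on either strand in 37 of the 50 mitosis genes that had an entry (74.0%), in 2 of 38 DNA replication genes (5.26%) and in 19.5% of all 27305 genes. The upstream stretches of 3 mitosis genes are shown with these letters in capitals as examples of members that hold them, chosen after their values were seen. MKI67 is at chr10:128126435-128126482 on the minus strand, CCNB2 at chr15:59105105-59105134 on the plus strand and CDC20 at chr1:43358791-43358933 on the plus strand.
MKI67: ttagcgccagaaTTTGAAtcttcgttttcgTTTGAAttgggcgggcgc
CCNB2: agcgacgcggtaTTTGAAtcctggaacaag
CDC20: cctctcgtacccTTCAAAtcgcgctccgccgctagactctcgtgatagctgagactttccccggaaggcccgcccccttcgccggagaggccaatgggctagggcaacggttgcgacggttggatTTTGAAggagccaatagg
CCNB2, a B-type cyclin, differed by -2.01 in library 3 and -0.77 in library 6, and CDC20, an activator of the anaphase-promoting complex, by -1.84 and -0.79. A match to the letters is a description of the window and not a site in use.

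Many cytokine and NF-kB genes were called higher in library 3, and none was in library 6. Of 37 tested NF-kB targets and regulators, 22 were called higher in library 3 and 36 had a positive difference, with a median of 1.30, and in library 6 none was called higher and 2 were called lower, with a median of -0.12. Of 25 tested cytokines and chemokines, 10 were called higher and 3 lower in library 3, with a median of 0.75, and in library 6 none was called higher and 4 were called lower. Of all tested genes, 1.26% were called higher and 3.66% lower in library 3, and 1.34% and 1.92% in library 6. On the ERCC scale the medians of library 3 were 0.55 for NF-kB genes and 0.0065 for cytokines.

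IL6, the gene of the inflammatory cytokine interleukin 6 (ENSG00000136244, on the plus strand at chr7:22725884-22732002), stood at 2.66 and 3.80 CPM in libraries 1 and 2 and at 115 CPM in library 3, and at 1.21 and 2.52 CPM in libraries 4 and 5 and at 0.855 CPM in library 6. CXCL8, the neutrophil chemokine interleukin 8, stood at 4.85 and 4.95 CPM against 236 CPM in wild-type cells and at 1.34 and 5.65 CPM against 2.90 CPM in ΔLEO1 cells. The wild-type libraries did not overlap for either gene, and in ΔLEO1 cells library 6 was the lowest of the 3 for IL6 and lay between libraries 4 and 5 for CXCL8. CXCL1, another neutrophil chemokine, was below the filter on low counts, and it stood at 0.466 and 0.842 CPM in libraries 1 and 2 and at 44.0 CPM in library 3, with no count in libraries 4, 5 and 6.

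CCL2, the monocyte chemokine, stood at 13.5 and 15.01 CPM in libraries 1 and 2 and at 156 CPM in library 3. IL1B, the gene of interleukin 1 beta, stood at 3.02 and 4.77 CPM against 62.7 CPM. The inhibitors that NF-kB induces were higher as well, with TNFAIP3, which encodes the ubiquitin-editing enzyme A20, at 9.93 and 12.9 CPM against 74.2 CPM and NFKBIA, which encodes IkB alpha, at 33.5 and 35.4 CPM against 135 CPM. ICAM1, the leukocyte adhesion receptor, had a difference of 2.52, ZC3H12A, an RNase that degrades cytokine messages, one of 3.09, and PTGS2, the inducible cyclooxygenase, one of 1.68. In library 6 the differences of these genes and CCL2 lay between -0.69 and -0.11, whereas IL1B was the highest of its group there, at 3.09 and 5.16 CPM against 6.24 CPM (0.66). The leukocyte markers summed to 10.0 and 11.2 CPM in libraries 1 and 2 and to 10.1 CPM in library 3.

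The NF-kB consensus, searched on both strands, occurred in the promoters of 19 of 38 NF-kB genes with an entry, of 13 of 38 cytokine genes (34.2%) and of 13.3% of all genes. Other lists also exceeded that share, with 11 of 30 contractile genes (36.7%) and 9 of 38 DNA replication genes (23.7%). Stretches of 3 of these promoters are shown with the matches in capitals, for a cytokine and 2 inhibitors of NF-kB described above. IL6 is at chr7:22727115-22727148 and TNFAIP3 at chr6:137867180-137867225, both on the plus strand, and NFKBIA is at chr14:35404809-35404842 on the minus strand.
IL6: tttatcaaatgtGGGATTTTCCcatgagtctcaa
TNFAIP3: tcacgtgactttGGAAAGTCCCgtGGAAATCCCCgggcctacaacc
NFKBIA: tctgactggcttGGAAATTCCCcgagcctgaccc
The exons of IL6 overlap STEAP1B, and those of TNFAIP3 overlap another annotated gene, on the opposite strand. The strand setting of the counting is not given in the sources used here, so reads of the partner could be counted with either gene.

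Interferon-stimulated genes were lower in library 6 and not in library 3. Of 38 tested members, 27 were called lower in library 6, against 1.92% of all tested genes, with a median difference of -1.15. In library 3, 1 was called lower and 1 higher, with a median of -0.08. IFI6, an interferon-induced mitochondrial protein, stood at 492 and 643 CPM in libraries 4 and 5 and at 135 CPM in library 6, and at 40.9 and 49.1 CPM in libraries 1 and 2 and at 43.2 CPM in library 3. OAS2, an oligoadenylate synthetase that senses double-stranded RNA, stood at 49.3 and 84.9 CPM against 12.8 CPM in ΔLEO1 cells and ISG15, a ubiquitin-like modifier, at 88.9 and 126 CPM against 42.1 CPM. Libraries 4 and 5 themselves differed in these genes by a median of 0.48, the largest such value among the lists with over 2 tested members in any group, and library 6 lay below both for each of the 3 genes. The leukocyte markers summed to 9.33 and 8.96 CPM in libraries 4 and 5 and to 4.25 CPM in library 6, mostly through PTPRC, and their part in the interferon-stimulated genes was not tested.

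Metallothionein genes and the zinc exporter gene SLC30A1 were lower in both genotypes in 10% serum. Zinc was not measured, and its part was not tested. MT2A, a metallothionein, which binds zinc and copper, stood at 180 and 202 CPM in libraries 1 and 2 and at 88.3 CPM in library 3, and at 184 and 192 CPM in libraries 4 and 5 and at 11.7 CPM in library 6. MT1E stood at 34.4 and 34.8 CPM against 11.9 CPM, and at 40.6 and 38.2 CPM against 2.14 CPM. All 3 metallothioneins that passed the filter, of 10 in the list, were called lower in both libraries, with medians of -1.21 and -3.97. MT1X, the third of them, shares 17.05% of its 58-base stretches with other genes.

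SLC30A1, the zinc exporter of the plasma membrane (ENSG00000170385, on the minus strand at chr1:211571568-211578742), stood at 41.5 and 41.7 CPM in libraries 1 and 2 and at 9.89 CPM in library 3, and at 33.6 and 33.1 CPM in libraries 4 and 5 and at 4.41 CPM in library 6. SLC39A10, a zinc importer, differed the other way, with 35.8 and 37.3 CPM against 95.4 CPM and 15.9 and 16.5 CPM against 44.9 CPM. In 0.1% serum the differences of SLC30A1 were 0.16 and 0.45 and those of SLC39A10 0.18 and 0.77, so that neither was called there. The 3 metallothioneins had a median of 0.13 in library 9 and of -0.81 in library 12, where all 3 were negative and none was called. Libraries 6 and 3 had the lowest SLC30A1 levels of all 12 libraries.

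The core of the metal response element was searched as TGCACNC or TGCGCNC on both strands and is shown in capitals for 3 of these genes. MT1E, which had the lowest difference of the metallothioneins in library 6 (-4.14), had no entry. The core occurred in the promoters of 33.4% of all genes, so that a single match is common, whereas MT2A held 7 upstream matches, of which 4 fall in the stretch printed, and MT1X held 4. In other lists the share was 60.5% for DNA replication, 46.7% for contractile, 44.0% for mitosis, 42.1% for NF-kB and 23.7% for cytokine genes. MT2A is at chr16:56608433-56608583 and MT1X at chr16:56682308-56682435, both on the plus strand, and SLC30A1 is at chr1:211579192-211579222 on the minus strand.
MT2A: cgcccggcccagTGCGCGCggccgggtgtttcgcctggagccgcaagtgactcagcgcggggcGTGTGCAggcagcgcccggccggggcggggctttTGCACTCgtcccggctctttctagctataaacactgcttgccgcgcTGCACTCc
MT1X: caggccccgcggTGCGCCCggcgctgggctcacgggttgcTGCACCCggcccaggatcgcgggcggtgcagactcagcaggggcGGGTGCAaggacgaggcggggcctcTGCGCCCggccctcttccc
SLC30A1: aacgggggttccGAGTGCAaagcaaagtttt
These matches are letters in a window, and nothing was measured of a factor bound there.

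Contractile and actin genes were higher in both genotypes in 10% serum relative to the median gene, although the median of library 3 was -0.25 on the ERCC scale. The median difference over 34 tested members was 0.50 in library 3 and 0.45 in library 6, and 30 of 34 were positive in both. Called higher were 3 and 4 of them, against 1.26% and 1.34% of all tested genes. ACTA2, smooth muscle actin and the usual marker of the myofibroblast, stood at 380 and 349 CPM in libraries 1 and 2 and at 821 CPM in library 3, and at 1021 and 902 CPM in libraries 4 and 5 and at 2715 CPM in library 6. Its exons overlap FAS on the opposite strand. ACTC1, cardiac actin, stood at 2.19 and 2.09 CPM against 6.43 CPM and at 24.2 and 21.5 CPM against 138 CPM. In 0.1% serum the list had medians of -0.01 and -0.07. The CArG box, the element bound by serum response factor, occurred in 11 of 30 promoters of these genes (36.7%) and in 1.60% of all, and the stretch of ACTC1 at chr15:34795637-34795670 on the minus strand is shown with the match in capitals.
ACTC1: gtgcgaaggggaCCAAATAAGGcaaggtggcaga

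Some matrix genes differed in 10% serum, while the medians of the matrix lists lay between -0.35 and 0.07. Of 60 tested glycoproteins and proteoglycans, 3 were called higher and 12 lower in library 3 and 3 higher and 4 lower in library 6, and of 28 collagens 3 were called lower and none higher in library 3 and 2 lower and 1 higher in library 6. Over all tested genes, 1.26% were called higher and 3.66% lower in library 3 and 1.34% and 1.92% in library 6. The glycoprotein list was therefore called both higher and lower more often than all genes in both libraries. Collagens were called lower more often than all genes in both. TGFBI, a secreted adhesion protein induced by TGF-beta, stood at 108 and 103 CPM in libraries 1 and 2 and at 11.02 CPM in library 3, and at 89.6 and 86.7 CPM in libraries 4 and 5 and at 24.1 CPM in library 6. COMP, a pentameric thrombospondin that binds collagen, stood at 5.48 and 4.36 CPM against 0.179 CPM and at 5.05 and 3.55 CPM against 0.248 CPM, which are 7 and 11 counts in libraries 3 and 6. COL15A1, a basement membrane zone collagen, stood at 582 and 564 CPM against 172 CPM and at 93.9 and 90.9 CPM against 34.6 CPM. These 3 genes were lower in both genotypes without overlap.

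Other matrix genes differed in 1 genotype. POSTN, periostin, stood at 115 and 76.1 CPM in libraries 1 and 2 and at 5.74 CPM in library 3, and at 2542 and 2578 CPM in libraries 4 and 5 and at 1805 CPM in library 6, a difference of -0.48. FN1, fibronectin, had a difference of -1.08 in library 3 and -0.18 in library 6. HAS2, a hyaluronan synthase, had one of -3.22 in library 6 and -0.74 in library 3. The main fibrillar collagens differed by less than 0.5, with differences of -0.43 and -0.18 for COL1A1 and -0.49 and -0.17 for COL3A1.

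Of the tested genes with a symbol and at least 10 CPM in a group, 17 were called higher and 34 lower in both genotypes in 10% serum. The 10 highest included NR4A3, an orphan nuclear receptor of the immediate-early genes, with 7.57 and 7.38 CPM against 31.2 CPM and 6.83 and 8.80 CPM against 24.4 CPM. NR4A3 was also called higher in libraries 9 and 12, with differences of 1.47 and 1.01. ITGA8, an integrin subunit of contractile cells, had differences of 1.32 and 2.79, and TCIM, a regulator of Wnt signalling, 2.24 and 1.15. NIPAL4, A4GALT, DENND3 and CCDC81 were also among the highest, with differences from 1.13 to 1.84.

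The 10 lowest in 10% serum included LRRC15, a membrane protein of activated fibroblasts, with 24.3 and 23.9 CPM in libraries 1 and 2 and 3.98 CPM in library 3, and with 0.928 and 0.839 CPM in libraries 4 and 5 and 0.113 CPM in library 6, where it had 5 counts. FIBIN had differences of -1.97 and -1.64, GUCY1A2, a subunit of soluble guanylate cyclase, -1.49 and -1.96, and EGR2, a growth factor-induced zinc finger protein, -1.62 and -1.37. SLC30A1, TGFBI, MT1E, COL15A1, E2F7 and MAP2K6 made up the rest.

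**Figure D2:**
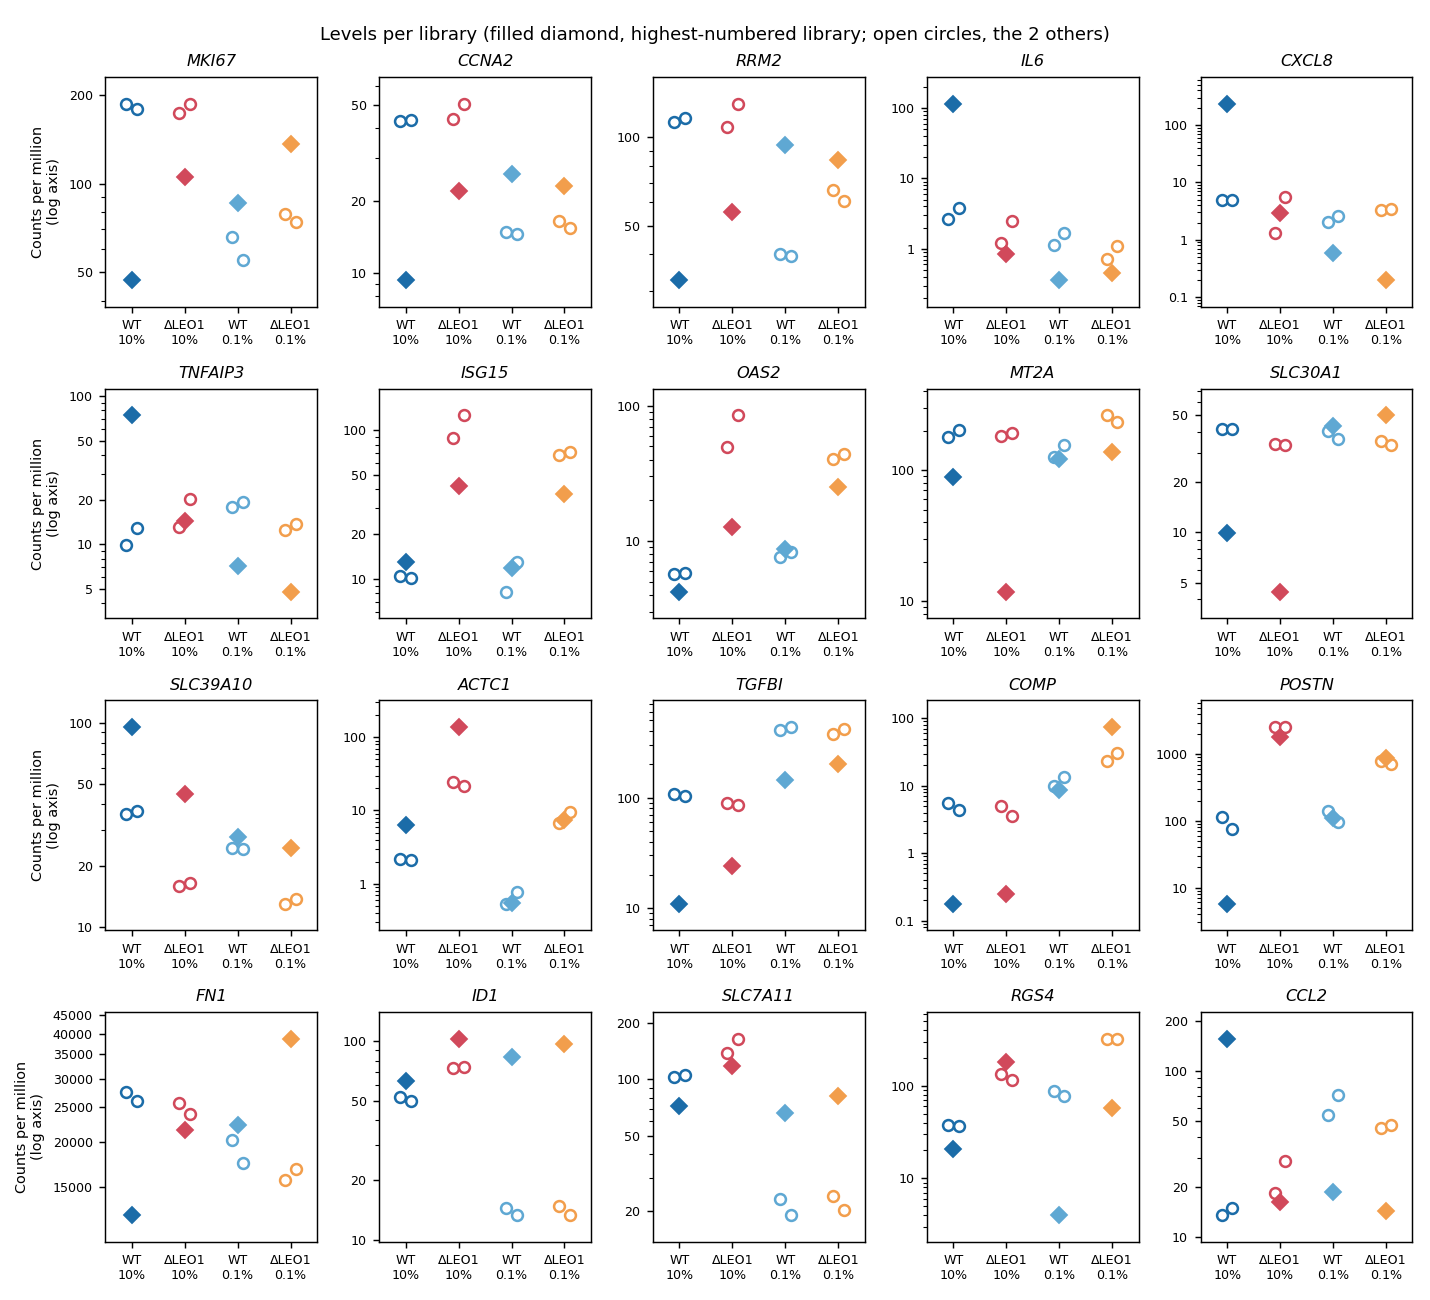
CPM in each of the 12 libraries on a log axis for 20 genes, by genotype and serum, with the highest-numbered library as a filled diamond and the 2 others as open circles. MKI67, CCNA2 and RRM2 show the diamond below the circles in 10% serum and above them in 0.1% serum, IL6 and CXCL8 show it far above only in wild-type cells in 10% serum, and SLC30A1 shows it far below in 10% serum in both genotypes.

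In 0.1% serum, the genes of mitosis were higher in libraries 9 and 12 than in the 2 others of their groups. Their summed level was 1106 and 1048 CPM in libraries 7 and 8 and 1889 CPM in library 9, and 1533 and 1520 CPM in libraries 10 and 11 and 2151 CPM in library 12. The median difference was 0.91 in library 9 and 0.40 in library 12, 50 of 57 were positive in both, and 17 were called higher in library 9 and none in library 12. For the 44 DNA replication genes the medians were 0.54 and 0.17, and 31 were positive in both, with 13 negative in library 12. Called higher were 4 and 1 of them and lower none. Over all tested genes, 2.40% and 2.56% were called higher, so that the count in library 12 was near the background.

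MKI67 stood at 66.1 and 54.8 CPM in libraries 7 and 8 and at 86.0 CPM in library 9, and at 78.9 and 74.2 CPM in libraries 10 and 11 and at 137 CPM in library 12. CCNA2 stood at 14.8 and 14.5 CPM against 25.9 CPM and at 16.4 and 15.4 CPM against 22.9 CPM. RRM2 stood at 40.0 and 39.4 CPM against 93.9 CPM and at 66.3 and 60.7 CPM against 83.4 CPM. In these 3 genes the highest-numbered library was the highest of its group in both genotypes, the reverse of its place in 10% serum. E2F2, a transcription factor of the G1 to S transition, was called higher in library 12 alone (1.502).

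The serum difference of the cell cycle genes depended on which libraries were compared. Between the 2 other libraries of each group, mitosis genes were lower in 0.1% than in 10% serum by a median of 1.44 on the log2 scale in wild-type and 0.93 in ΔLEO1 cells relative to the median gene, and 0 of 57 were higher. Between library 9 and library 3, the median was 1.1998 and 57 of 57 genes were higher in 0.1% serum. Between library 12 and library 6, the median was 0.22, with 43 genes higher and 14 lower. On the ERCC scale these differences were 0.43 and 0.16 between the highest-numbered libraries and -2.47 and -2.68 between the others.

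For the DNA replication genes the median serum difference between the others was -1.05 in wild-type and -0.69 in ΔLEO1 cells, with 0 of 44 higher. Between the highest-numbered libraries it was 0.60 in wild-type cells, with 43 of 44 higher, and 0.20 in ΔLEO1 cells, with 31 of 44 higher, although on the ERCC scale the wild-type value was -0.17. Of the 57 mitosis genes, 49 were lower in library 3, in 10% serum, than in both library 7 and library 8, in 0.1% serum, and 21 were lower in library 6 than in both library 10 and library 11. Contractile genes kept their serum difference, which was -1.45 between the highest-numbered and -0.79 between the other wild-type libraries and -0.85 and -0.29 in ΔLEO1 cells.

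**Figure D3:**
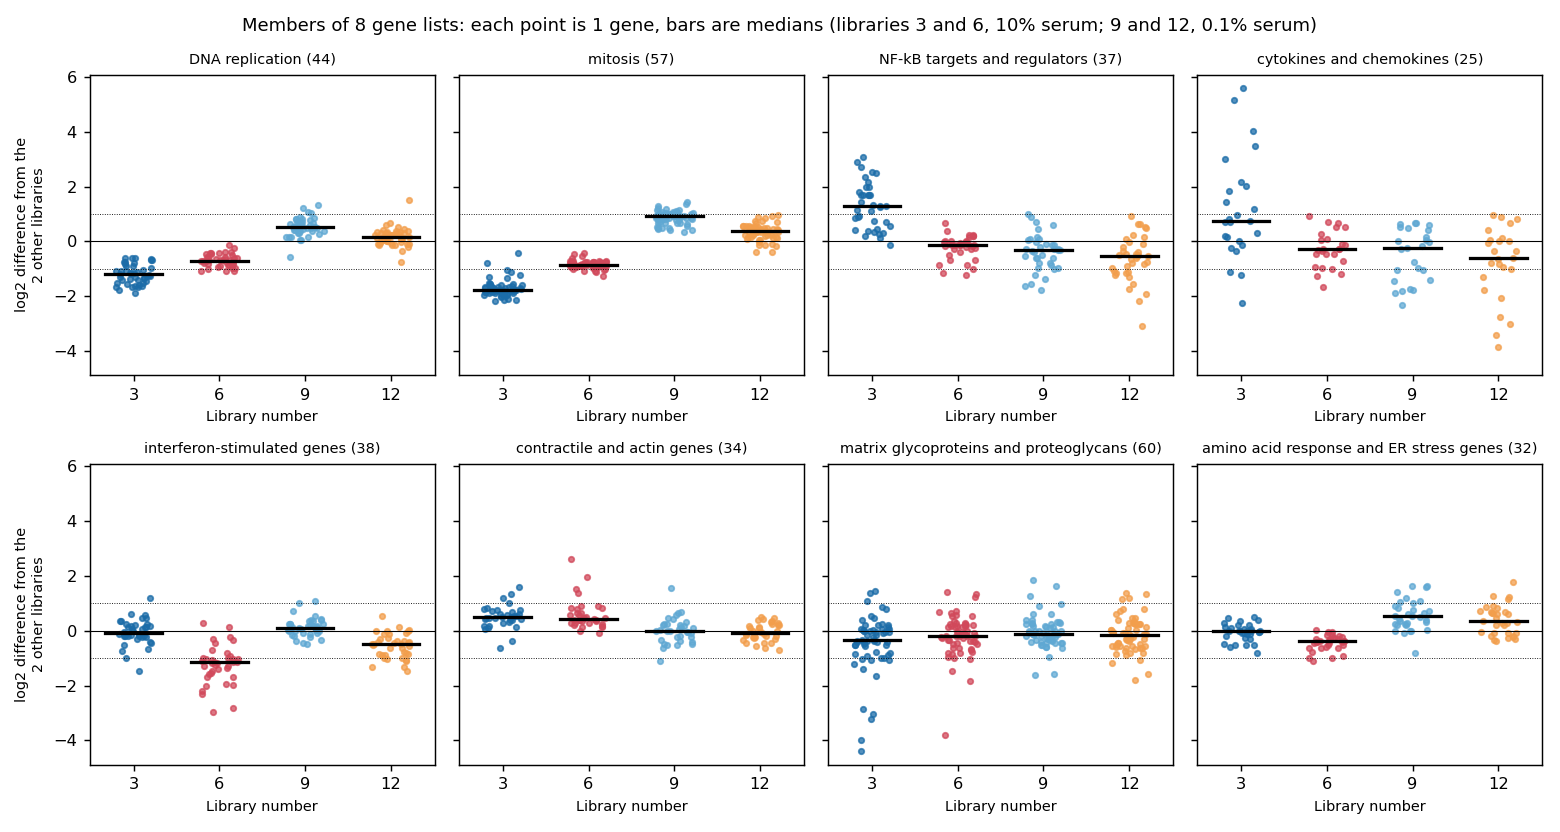
Log2 difference of the highest-numbered library from the 2 others of its group, relative to the median gene, for each tested member of 8 gene lists, by library number, with the median as a bar. The points of the mitosis and DNA replication lists lie below 0 for libraries 3 and 6 and mostly above 0 for libraries 9 and 12, the NF-kB genes lie above 0 for library 3, and the interferon-stimulated genes lie below 0 for library 6.

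The medians of cytokines and NF-kB genes lay below 0 in libraries 9 and 12 relative to the median gene. On the ERCC scale those of library 12 were positive, at 0.70 and 0.74. Of 25 tested cytokines and chemokines, 9 were called lower in library 9 and 7 in library 12, and none was called higher. Their medians were -0.25 and -0.59, with 10 positive differences in library 9 and 9 in library 12. The whole list summed to 810 and 913 CPM in libraries 7 and 8 and 831 CPM in library 9. It summed to 439 and 423 CPM in libraries 10 and 11 and 321 CPM in library 12. At 10 CPM or more, the 9 cytokines left had medians of 0.18 and -0.32. Of 37 NF-kB genes, 6 were called lower and 1 higher in library 9 and 11 lower in library 12, with medians of -0.30 and -0.53. Of all tested genes, 1.67% were called lower in library 9 and 2.27% in library 12.

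CCL2 stood at 54.2 and 71.3 CPM in libraries 7 and 8 and at 18.7 CPM in library 9, and at 45.5 and 47.0 CPM in libraries 10 and 11 and at 14.4 CPM in library 12. TNFAIP3 stood at 17.8 and 19.3 CPM against 7.14 CPM and at 12.6 and 13.7 CPM against 4.79 CPM. C3, the central complement protein, stood at 103 and 165 CPM against 44.8 CPM and at 77.2 and 87.3 CPM against 10.3 CPM. RELB, an NF-kB subunit, stood at 44.9 and 50.3 CPM against 20.6 CPM and at 28.5 and 29.9 CPM against 9.38 CPM. In all 4 genes the highest-numbered library was below both others in both genotypes, whereas in 10% serum library 3 was above both others for each of them.

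CXCL8 was low in all 6 libraries in 0.1% serum, with 2.08 and 2.63 CPM against 0.597 CPM and 3.25 and 3.47 CPM against 0.198 CPM, the last from 7 counts. In both libraries, 5 of the 25 cytokines and 5 of the 37 NF-kB genes had a positive difference. Among these were BCL3, an IkB family coactivator (0.91 in both libraries), CEBPB, a transcription factor of the acute phase response (1.01 and 0.65), and LIF, an interleukin 6 family cytokine (0.51 and 0.88). Interferon-stimulated genes were lower in library 12, with 7 of 38 called, against 2.27% of all tested genes. Their median there was -0.49, which was 0.79 on the ERCC scale, and their median in library 9 was 0.11.

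In 0.1% serum the medians of the matrix lists lay between -0.28 and 0.20, and single genes differed. TGFBI stood at 413 and 436 CPM in libraries 7 and 8 and at 144 CPM in library 9, and at 373 and 415 CPM in libraries 10 and 11 and at 202 CPM in library 12, so that it was called lower in all 4 highest-numbered libraries. FN1 stood at 20311 and 17482 CPM against 22320 CPM in wild-type cells and at 15712 and 16789 CPM against 38714 CPM in ΔLEO1 cells. COMP stood at 10.0 and 13.5 CPM against 8.60 CPM and at 23.4 and 30.8 CPM against 74.4 CPM. For both genes the clear gap was in ΔLEO1 cells.

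The stromelysin MMP3 stood at 9.42 and 14.8 CPM in libraries 7 and 8 and at 73.8 CPM in library 9, and at 13.5 and 12.9 CPM in libraries 10 and 11 and at 30.1 CPM in library 12. The interstitial collagenase MMP1 was lower in both, with differences of -1.28 and -1.43. Both overlap WTAPP1 on the opposite strand. TGM2, the tissue transglutaminase, stood at 281 and 320 CPM against 66.8 CPM and at 110 and 143 CPM against 34.8 CPM. LAMA3, a laminin chain, had differences of 1.87 and 1.36, ASPN, a small leucine-rich proteoglycan, 1.27 and 1.196, and MATN2, a matrilin, -1.61 and -1.804. Collagens had medians of -0.0040 and 0.20, with COL1A1 at 0.75 and 0.45 and COL3A1 at 0.65 and 0.66.

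Of the tested genes with a symbol and at least 10 CPM in a group, 32 were called higher and 46 lower in both genotypes in 0.1% serum. ID1, an inhibitor of differentiation induced by BMP signalling (ENSG00000125968, on the plus strand at chr20:31605283-31606515), stood at 14.6 and 13.3 CPM in libraries 7 and 8 and at 83.1 CPM in library 9, and at 14.9 and 13.4 CPM in libraries 10 and 11 and at 96.7 CPM in library 12. In 10% serum its 6 libraries ran from 50.1 to 103 CPM, so that libraries 9 and 12 were within that range and the 4 others in 0.1% serum were below it. SLC7A11, the cystine importer, stood at 23.3 and 19.1 CPM against 66.0 CPM and at 24.2 and 20.3 CPM against 81.5 CPM. SIPA1L2 (2.33 and 2.11), the potassium channel gene KCNJ3 (2.04 and 1.87), CYP1B1 (1.799 and 1.85) and the clock gene PER1 (1.68 and 1.89) were next, followed by NRXN3, NAV3 and CHRM2.

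SLC7A11 belongs to the genes of the amino acid response and of endoplasmic reticulum stress. Of these, 8 of 32 were called higher in library 9 and 4 in library 12, with medians of 0.53 and 0.34. Over all tested genes the shares called higher were 2.40% and 2.56%. PSAT1, an enzyme of serine synthesis, stood at 98.4 and 93.5 CPM in libraries 7 and 8 and at 291 CPM in library 9, and at 106 and 103 CPM in libraries 10 and 11 and at 264 CPM in library 12. PCK2, the mitochondrial phosphoenolpyruvate carboxykinase, stood at 34.01 and 33.7 CPM against 105 CPM and at 30.5 and 30.0 CPM against 71.6 CPM. HSPA5, the main chaperone of the endoplasmic reticulum, differed by 0.31 and -0.17. In 10% serum the median of the list was -0.015 in library 3 and -0.39 in library 6.

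Among the lower genes in 0.1% serum, RGS4, a regulator of G protein signalling (ENSG00000117152, on the plus strand at chr1:163068775-163076802), stood at 88.2 and 78.4 CPM in libraries 7 and 8 and at 4.001 CPM in library 9, and at 322 and 320 CPM in libraries 10 and 11 and at 57.4 CPM in library 12. ABTB2 stood at 30.7 and 30.7 CPM against 3.22 CPM and at 17.1 and 22.4 CPM against 2.72 CPM. PMEPA1, a TGF-beta-induced inhibitor of TGF-beta signalling, had differences of -2.15 and -1.63, LRP4, a receptor of the LDL receptor family, -2.04 and -2.01, SAMD11 -2.49 and -1.70 and MARCHF3, a ubiquitin ligase, -2.95 and -2.36. FMO1, MATN2, TGM2 and CCL2 made up the rest of the 10.

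MAP2K6, a kinase that activates p38 (ENSG00000108984, on the plus strand at chr17:69414698-69553861), was the one gene among those named by rank that was called lower in both genotypes in 10% serum and higher in both in 0.1% serum. It stood at 25.5 and 21.6 CPM in libraries 1 and 2 and at 9.16 CPM in library 3, and at 6.42 and 6.33 CPM in libraries 4 and 5 and at 2.48 CPM in library 6. In 0.1% serum it stood at 5.70 and 4.65 CPM against 19.5 CPM and at 5.18 and 5.20 CPM against 27.4 CPM.

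Library 12 differed in its RNA classes. Mitochondrially encoded genes took 3.62% and 3.41% of the counts of libraries 10 and 11 and 1.99% of library 12 (95% Wilson interval 1.98% to 1.99%), and cytosolic ribosomal protein genes took 5.63% and 5.35% against 3.76% (3.76% to 3.77%). These intervals cover counting error only. In the other highest-numbered libraries the mitochondrial share was 0.910 to 1.23 times the mean of the 2 others. The part of these shares in the differences of library 12 was not tested.

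**Figure D4:**
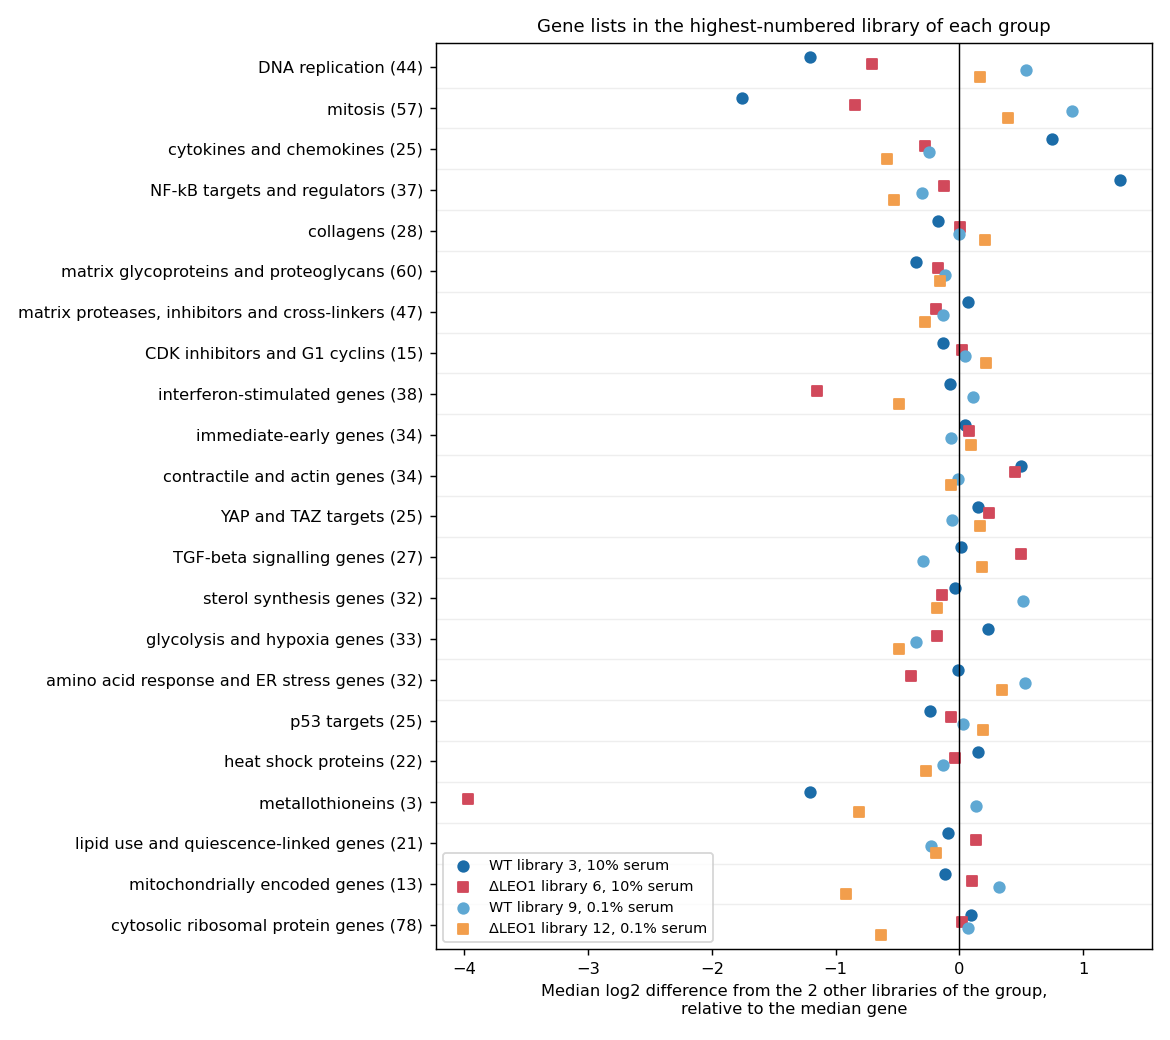
Median log2 difference of each highest-numbered library from the 2 others of its group, relative to the median gene, for 22 gene lists, with the number of tested members in brackets. The DNA replication and mitosis lists lie at -1.76 to -0.71 for libraries 3 and 6 and at 0.17 to 0.91 for libraries 9 and 12, and the collagens stay within -0.17 to 0.20 in all 4.

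The groups were compared with edgeR's likelihood ratio test on ERCC-scaled counts, at a Benjamini-Hochberg adjusted p under 0.05, with all 12 libraries and with the 8 that remained without libraries 3, 6, 9 and 12. The serum comparison called 4901 genes in wild-type cells with all libraries (37.0%) and 9704 with 8 (73.3%), and in ΔLEO1 cells it called 6382 (48.2%) and 12344 (93.3%). The genotype comparison called 1170 genes in 10% serum with all libraries (8.84%) and 1924 with 8 (14.5%), and in 0.1% serum 984 (7.43%) and 2573 (19.4%). Leaving out libraries that had been chosen for standing apart lowers the spread by construction, and the median standard error of a log2 fold change went from 0.471 to 0.364 in the wild-type serum comparison.

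The calls made with all libraries were mostly kept, with 4881 of 4901, 6334 of 6382, 1159 of 1170 and 837 of 984 also called with 8 libraries. The genotype comparison in 0.1% serum changed its balance, from 509 genes higher and 475 lower in ΔLEO1 cells to 378 higher and 2195 lower, and its median log2 fold change went from 0.27 to -0.42. Scaled on the genes with TMM, it called 2033 higher and 2333 lower with all libraries and 4124 higher and 3935 lower with 8. Without library 12 alone, the ERCC-scaled fit called 352 higher and 1039 lower, with a median of -0.27.

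Leaving out a single library often changed the number of calls, and not only for the highest-numbered ones. In the wild-type serum comparison, which called 4901 genes, 7653 were called without library 3, 1401 without library 9, 8795 without library 12, 1305 without library 1, 1873 without library 2, 1223 without library 7 and 7976 without library 11. In the ΔLEO1 serum comparison, which called 6382, 11793 were called without library 12, 916 without library 4, 3168 without library 5, 706 without library 10 and 1225 without library 11. Other removals changed little. Without library 6 the ΔLEO1 serum comparison called 6400, and without library 8 the wild-type one called 4475. The genotype comparison called 1913 genes in 10% serum without library 12 and 1752 in 0.1% serum without library 11.

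**Figure D5:**
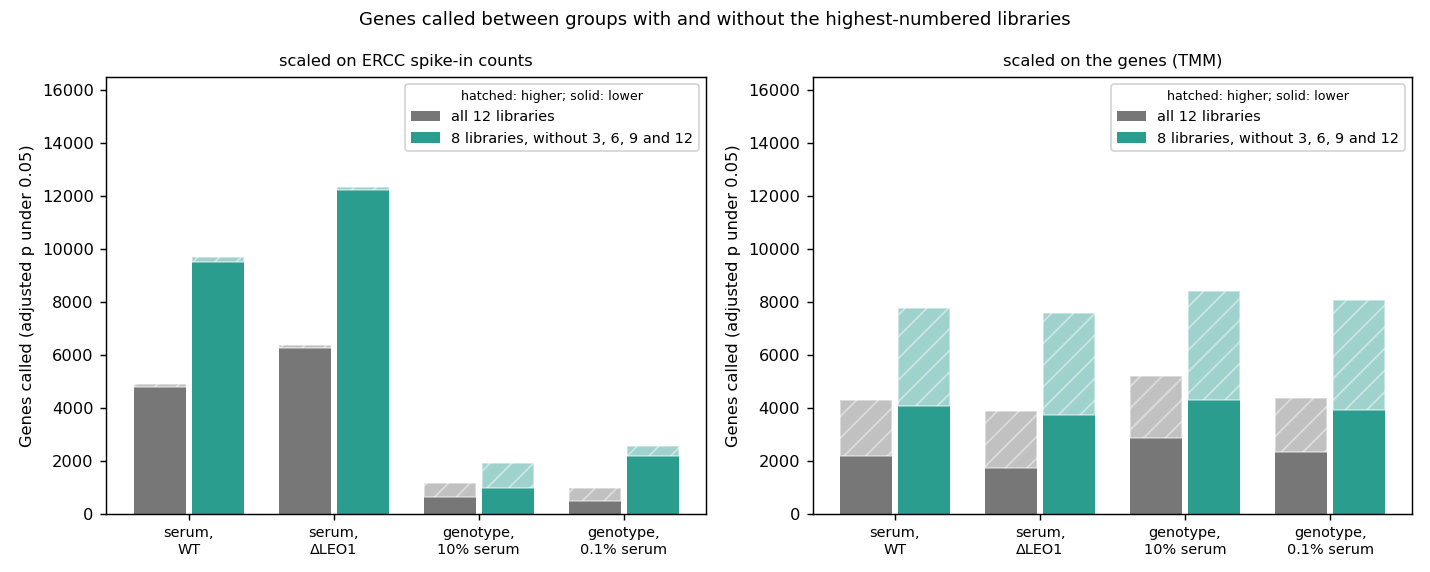
Number of genes called at an adjusted p under 0.05 in the serum and genotype comparisons with all 12 libraries (grey) and with the 8 libraries other than 3, 6, 9 and 12 (green), split into lower (solid) and higher (hatched) genes, with ERCC scaling on the left and TMM scaling on the right. Each comparison called more genes with 8 libraries, from 4901 to 9704 for serum in wild-type cells with ERCC scaling.

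The mitosis genes were called lower in 0.1% serum on the ERCC scale with and without these libraries, 56 of 57 with all libraries and 57 of 57 with 8 in wild-type cells and 57 of 57 with both in ΔLEO1 cells. Of all tested genes, 36.1% and 71.8% were called lower in wild-type and 47.2% and 92.5% in ΔLEO1 cells, so that with 8 libraries the count in ΔLEO1 cells was near the background. With TMM scaling on the genes, an alternative that measures a gene against the other genes, 7 of 57 were called lower in wild-type cells with all libraries and 56 of 57 with 8, and 4 of 57 and 57 of 57 in ΔLEO1 cells. The same scaling called 16.6% and 30.8% of all genes lower in wild-type and 12.9% and 28.3% in ΔLEO1 cells, so that with all libraries the mitosis share lay below the background and with 8 above it. The DNA replication genes went from 9 of 44 to 43 of 44 and from 6 of 44 to 41 of 44. The 4 libraries were chosen on these counts, so a rise in calls without them was built into the choice. It is given as a description. With all libraries and TMM scaling, the median log2 fold change of the mitosis genes was already -0.65 in wild-type and -0.62 in ΔLEO1 cells. MKI67 had a log2 fold change of -2.25 (SE 0.47, edgeR adjusted p = 5.7e-05) for serum in wild-type cells with all libraries and of -2.73 (SE 0.38) with 8. The median gene stood at -0.97 and -1.03 in these fits, which were on the ERCC scale.

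The group means of the genes named above moved with these libraries, which follows from how the genes were named and is given as a description, without a test. These fold changes are on the ERCC scale, where the median gene moved too. Its serum difference was -0.97 with all libraries and -1.03 with 8 in wild-type cells, and -1.05 and -1.72 in ΔLEO1 cells. For genotype the median gene stood at 0.35 and 0.26 in 10% serum and at 0.27 and -0.42 in 0.1% serum. In 10% serum the log2 fold change of IL6, ΔLEO1 against wild type, was -3.93 with all libraries (SE 0.55) and -0.59 with 8 (SE 0.39). CXCL8 went from -3.89 (SE 0.53) to -0.36 (SE 0.37). CCL2 had a serum difference of -0.91 in wild-type cells with all libraries (SE 0.46) and of 1.06 with 8 (SE 0.36), and TNFAIP3 went from -1.78 (SE 0.48) to -0.39 (SE 0.36). For these 4 genes library 3 lay above libraries 1 and 2 by differences of 2.73 to 5.59.

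In 0.1% serum the log2 fold change of COMP, ΔLEO1 against wild type, was 2.47 with all libraries (SE 0.50) and 0.75 with 8 (SE 0.36). SLC30A1 had a serum difference of -0.38 in ΔLEO1 cells with all libraries (SE 0.46) and of -1.68 with 8 (SE 0.36), and MAP2K6 one of 0.53 (SE 0.48) and of -2.04 (SE 0.38). The median gene stood at -1.05 and -1.72 in the same fits, so that part of both shifts is that of the scale. ACTA2, smooth muscle actin, had a serum difference in wild-type cells of -2.96 with all libraries (SE 0.47, edgeR adjusted p = 3.4e-08) and of -2.71 with 8 (SE 0.39).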

How the data were processed

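The authors prepared stranded poly(A) libraries, and per the labels the processing named bcl2fastq 2.20.0.422, STAR 2.7.10a, featureCounts 1.5.1 and GRCh38. The deposited values are raw counts for each gene and each ERCC transcript. Reads in annotated exons were counted with an Ensembl annotation, whose release, like the use of strand, is not given in the sources used here. The 12 libraries were grouped by genotype and serum from their titles, with 3 in each group.

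Of 60671 genes, 32285 had a count, and the 13236 with more than 1 CPM in at least 3 libraries were tested. Differences within a group were taken on log2 CPM with 2 as the prior count and have no test. Between groups, edgeR 4.0.16 in R 4.3.3 was fitted to all libraries, with the ERCC total times its TMM factor as the effective size, and two-sided likelihood ratio tests were adjusted over all tested genes. Intervals of shares are Wilson intervals and, without molecular identifiers, cover counting error only. The procedures were tested on simulated data.

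The highest-numbered libraries, the gene lists and the tests were chosen with earlier results of these data known. The genes named are a fixed set of cell cycle, cytokine, matrix and contractile genes. To these were added, among tested genes with a symbol and at least 10 CPM on average in a group of the serum, the 10 called higher and the 10 called lower in both genotypes with the largest smaller difference of the genotypes. In each of the main lists, the 3 members with the most positive and the 3 with the most negative mean difference in each serum were added as well. CCNB2, CDC20, MT2A, MT1X, IFI6, OAS2, ISG15, PSAT1, PCK2 and HSPA5 fell outside this rule and were chosen after their values were seen. Alternatives for the calls between groups were the quasi-likelihood test, DESeq2 1.42.0 scaled on the ERCC transcripts, TMM or DESeq2 size factors on the genes, no filter, a term for the highest-numbered library per serum, and leaving out each library or all 4. For the differences they were the ERCC scale or TMM without subtracting the median gene, 0.5 as the prior count, thresholds of 1.5-fold and 4-fold, a minimum of 10 CPM, no filter, the mean over members, and leaving out each lower-numbered library. TMM without the 4 libraries was added after the data were seen. Gene positions come from GENCODE on GRCh38, and promoters from RefSeq on GRCh38.p14, where MT1E and CCL2 had no entry.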

Additional observations from a re-analysis of the deposited data

Results flagged for a closer look

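Lists and named genes were flagged where the highest-numbered libraries differed in opposite directions in the 2 sera, in both genotypes. A list had to have medians of at least 0.1 in size in all 4 libraries. A named gene had to be called in all 4. By these limits, 2 gene lists and 1 gene were flagged. Contractile genes changed sign too, with medians of only -0.01 and -0.07 in 0.1% serum. MKI67, CCNA2 and RRM2 also changed direction without being called in all 4. For the mitosis genes, the mean of the 2 list medians in 0.1% serum less the mean of those in 10% serum was 1.95 on the log2 scale, from medians of -1.76 and -0.84 in libraries 3 and 6 and of 0.91 and 0.40 in libraries 9 and 12. For the DNA replication genes it was 1.31, from -1.21 and -0.71 and from 0.54 and 0.17. For MAP2K6 the mean of its 2 differences in 0.1% serum less that in 10% serum was 3.43, from -1.33 and -1.32 and from 1.91 and 2.29. None of these contrasts between the sera was tested, since the libraries were chosen on the same counts.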

How the results depend on the processing

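With each library left out in turn, the serum comparison called 1223 to 8795 genes in wild-type and 706 to 11793 in ΔLEO1 cells, and the genotype comparison 847 to 1913 in 10% and 703 to 1752 in 0.1% serum, whereas the genes apart in both genotypes stayed at 26 to 31 higher and 75 to 112 lower in 10% and at 95 to 117 and 84 to 103 in 0.1% serum. Without all 4 libraries, the calls were 9704, 12344, 1924 and 2573. A term for the highest-numbered library gave 9566 and 10712 for serum. TMM on the genes gave 3900 for serum in ΔLEO1 cells and 5224 and 4366 for genotype, and DESeq2's size factors gave 3894, 5232 and 4366. TMM without the 4 libraries, chosen after seeing the data, gave 7763 for serum in wild-type cells and 8407 and 8059 for genotype. Without a filter the genotype calls were 1918 and 1544. The quasi-likelihood test and DESeq2 with ERCC size factors stayed within 1.5 times of each count. The genes apart in both genotypes, 28 higher and 85 lower in 10% and 102 and 88 in 0.1% serum, numbered 2, 577, 61 and 14 on the ERCC scale, 17, 36, 37 and 45 at 10 CPM or more with the median gene taken over those genes and symbols not required, 64, 157, 303 and 170 without a filter, 160, 456, 438 and 328 at 1.5-fold and 1, 6, 2 and 8 at 4-fold. On the ERCC scale, the mean over genotypes gave medians of -1.55 for DNA replication, -0.60 for collagens, -0.71 for glycoproteins and -0.61 for proteases in 10% serum, and in 0.1% serum of 0.73 for DNA replication, 1.02 for mitosis, -0.00452 for cytokines, -0.10 for NF-kB genes and 0.42 for collagens, with the sign turned to 0.23 for glycoproteins and 0.24 for proteases. As means over members, glycoproteins were at -0.34 and cytokines and glycoproteins in 0.1% serum at -0.65 and -0.085, and at 10 CPM or more cytokines in 0.1% serum were at -0.071. In library 12 the ERCC scale turned the sign of NFKBIA (0.17), TGFBI (0.23), NFKBIZ (0.14), HAS2 (0.058) and COL8A2 (0.044). The ERCC values follow from the shift of the median gene, and for the other moved values the cause was not tested. The labels give no pairing between groups, since the libraries are numbered 1 to 12 and none carries the number of another, and no paired analysis was run. With 1 library against 2, the differences have no replicate check, and genes with few counts depend on the prior count.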
